A study of Rattus norvegicus with 6 samples.

Results

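The complement system was examined in rat liver through 33 genes for its components, regulators and receptors, out of 15284 named genes with a probe on the array. The 33 were chosen by name, from knowledge of the pathway and with earlier results of these data known. They were grouped by the cell that makes them: 21 are made mainly by hepatocytes, 8 by macrophages and other myeloid cells, and 4 (C7, Cfd, Cd55 and Cd59) by other or many cells. A probe was found for 29 of them, through its accession in the RefSeq gene table. C4b, C5, C7 and C8g had no named probe, so their signals are not analysed here, and Cd59 stands in that table as Cd59b. The 29 genes had 49 probes, of which 47 were well above background on all 6 arrays. Both probes of Cd55, a membrane protein that speeds the decay of the convertases, were not well above background on any array, which left 28 genes to test. All results below on the signals of the chosen genes describe these 28. The counts of promoter windows also take in the untested C4b, C5 and Cd55.

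Complement is a cascade of plasma proteins that tags microbes and dying cells for removal. It starts from C1q bound to antibody or cell debris (the classical pathway), from lectins bound to sugars (the lectin pathway) or from spontaneous turnover of C3 (the alternative pathway), and all 3 routes meet in the cleavage of C3 and end in a membrane pore. The liver makes most of the circulating components in its hepatocytes, while its resident macrophages, the Kupffer cells, make C1q and carry many of the receptors.

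The livers came from 6 male Sprague-Dawley (Crl:CD(SD)) rats that were 5 weeks old when bought. Of these, 3 were given corn oil, the vehicle, and 3 received BBMP at 1000 mg/kg/day. BBMP is 2,2-bis(bromomethyl)-1,3-propanediol, used to make materials flame resistant, and the comparison asks which genes differ after the compound. The labels give the time both as 28 days and as 9 weeks. Total RNA of each liver was labelled with Cy3 and hybridised to its own 1-colour array. All values are log2 signals relative to the 75th percentile of the same array, so a value of 1 is a signal of double that percentile, and differences are BBMP minus corn oil on the log2 scale, with the standard error (SE) and p-value of limma.

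Between 60.1% and 64.4% of the probes on an array were well above background, and correlations between arrays ran from 0.986 to 0.992. The corn oil arrays shared 1 slide and scan and the BBMP arrays shared another, so an effect of the slide or scan and one of the compound cannot be told apart. Of 28112 features tested, limma called 2 (0.00711%) at an adjusted p of 0.05, both lower after BBMP. All 6 hepatocyte markers examined (Alb, Ttr, Apoa1, Tf, Cps1 and Tat) were well above background on all arrays.

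No complement gene passed the adjusted threshold: limma called 0 of 28, with adjusted p between 0.406 and 0.996, and 4 had an unadjusted p below 0.05, as did 10.8% of all features. Of these 4, C8b, Masp2 and C4bpb were lower after BBMP, where 6.09% of all features were lower by that rule, and Cd59 was higher, where 4.7% were. The sizes were small. The 95% interval of the difference lay within 2-fold in either direction for 22 of the 28 genes, against 87.3% of all features. The other 6 were C6 and the macrophage-made C1qa, C1qc, Fcna, Fcnb and Cfp, whose levels varied more from liver to liver.

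The medians of the 2 sources differed in sign. Of the 18 hepatocyte-made genes tested, 17 had a difference below 0 and 1, Masp1, a difference above 0, with a median of -0.18, while over all features 52.5% were below 0 and the median was -0.01. The count below 0 was 16 of 18 with median scaling and ran from 14 to 18 without single livers. The median was -0.11 with quantile normalization. Of the 8 macrophage-made genes, 6 had a difference above 0 (47.5% of all features) and the median was 0.29. All 8 were above 0 with normexp, quantile and median scaling, since Fcnb and C3ar1 lay near 0, and 5 were above 0 without corn oil 1 or without BBMP 3. That median moved with single livers: it was 0.13 without BBMP 3, 0.17 without corn oil 1, 0.49 without corn oil 3 and 0.50 without BBMP 2, and 0.16 with normexp, another background correction. All these genes were read in the same 6 livers, so the counts of genes are not counts of independent cases. The slide and scan coincide with the treatment here too. The difference between the 2 groups of genes was not tested, since the list was chosen with results of these livers known. In bulk tissue, fewer cells of a type and less RNA per cell cannot be told apart.

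**Figure D1:**
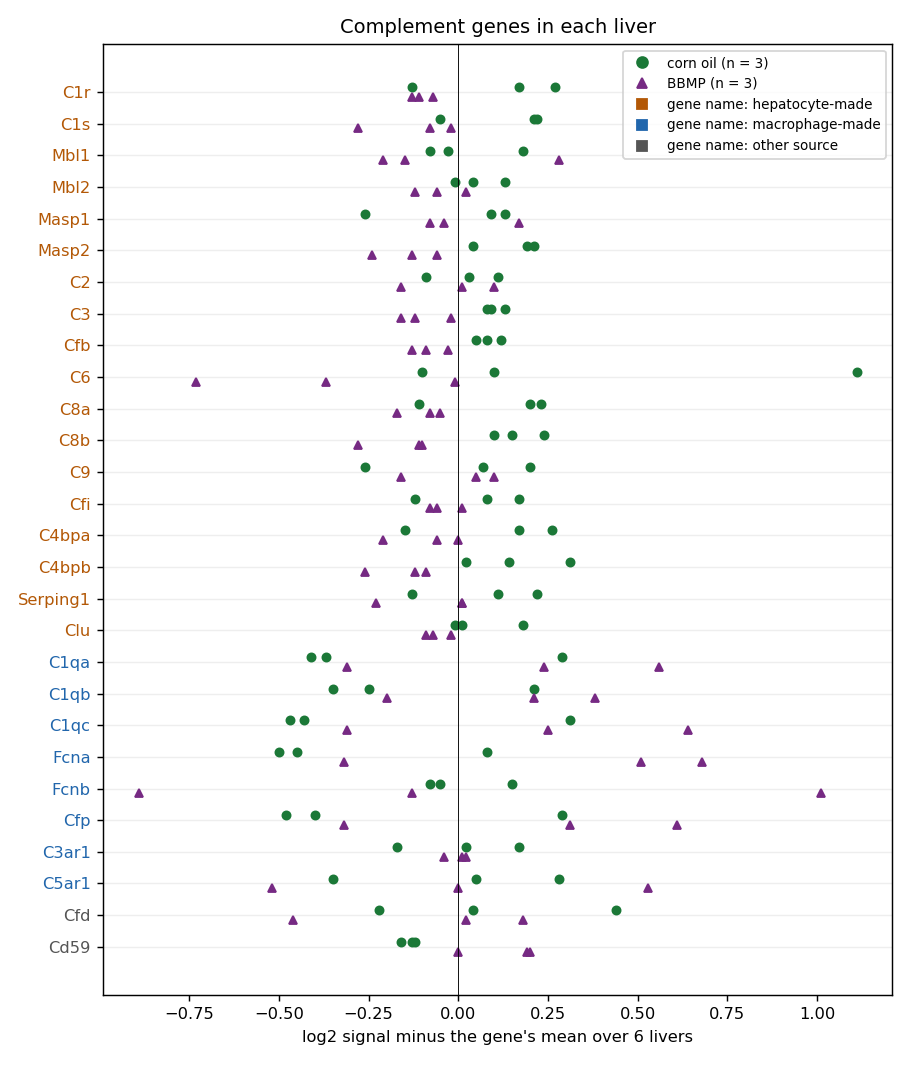
Log2 signal of the 28 tested complement genes in each of the 6 livers (x axis), relative to the gene's mean over the livers; circles are corn oil, triangles BBMP, and the colour of a gene name gives its source. Most hepatocyte-made genes lie within a short distance of 0. In 6 of the 18 all BBMP livers lie left of all corn oil livers, as for 9.58% of all features. In the other hepatocyte-made genes the groups overlap. C1qa, C1qc, Fcna and Cfp are spread widely within both groups and C3ar1 is not.

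The classical pathway starts with C1q, a bundle of 3 kinds of chain that recognises antibody and apoptotic cells. Its chains are encoded by C1qa, C1qb and C1qc, which are neighbours on chromosome 5 in the RefSeq annotation (GRCr8), with C1qc between the other two. C1qa measured 3.64, 3.68 and 4.33 in the corn oil livers and 4.29, 3.73 and 4.60 in the BBMP livers. For C1qb the values were 5.25, 5.35 and 5.82 against 5.81, 5.40 and 5.98. C1qc gave 1.40, 1.36 and 2.14 against 2.08, 1.52 and 2.47. In all 3 chains corn oil 3, BBMP 1 and BBMP 3 were high and corn oil 1, corn oil 2 and BBMP 2 were low, and the groups overlapped. The differences were 0.33 ± 0.28 for C1qa, 0.26 ± 0.21 for C1qb and 0.39 ± 0.31 for C1qc (SE; limma adjusted p = 0.698, 0.682 and 0.672). The spread within the groups was as large as the difference between them: the pooled within-group SD was 0.42, 0.30 and 0.46, where the median feature had 0.18. Each chain had another probe, with differences of 0.62 ± 0.33, 0.22 ± 0.24 and 0.45 ± 0.32, and these too were highest in BBMP 3.

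The promoters of C1qa and C1qb are shown because their transcripts followed the same order of livers, together with those of Fcna and Cfp, described below, which shared the 3 highest livers with them. Each window runs from 250 bases before to 50 bases after the start of the RefSeq gene (GRCr8), 5′ to 3′ in the direction of the gene. The windows are chr5:154419884-154420183 on the minus strand, chr5:154407778-154408077 on the minus strand, chr3:28847188-28847487 on the minus strand and chrX:3715301-3715600 on the plus strand. Capitals mark matches on either strand to 6 short motifs: GAGGAA (bound by PU.1, a transcription factor of macrophages), GAAA, any 2 bases and GAAA (IRF factors), TTGCNNAA (C/EBP factors), TTCNNNGAA (STAT factors), GGG, any 5 bases and CC (NF-kB) and TATAAA (the TATA box). Matches that overlap run together in the capitals.
C1qa: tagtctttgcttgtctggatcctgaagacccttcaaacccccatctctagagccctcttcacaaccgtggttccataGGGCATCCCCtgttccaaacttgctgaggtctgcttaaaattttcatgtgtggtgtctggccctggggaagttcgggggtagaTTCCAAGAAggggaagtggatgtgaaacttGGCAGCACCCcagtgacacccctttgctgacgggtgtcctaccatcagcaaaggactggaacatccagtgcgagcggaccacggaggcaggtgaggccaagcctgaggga
C1qb: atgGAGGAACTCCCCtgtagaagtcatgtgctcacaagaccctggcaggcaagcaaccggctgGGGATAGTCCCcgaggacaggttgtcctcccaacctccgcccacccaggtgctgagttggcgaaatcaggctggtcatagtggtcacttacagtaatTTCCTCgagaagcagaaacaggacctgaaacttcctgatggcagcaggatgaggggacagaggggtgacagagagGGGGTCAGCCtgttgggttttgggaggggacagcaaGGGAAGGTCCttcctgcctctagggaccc
Fcna: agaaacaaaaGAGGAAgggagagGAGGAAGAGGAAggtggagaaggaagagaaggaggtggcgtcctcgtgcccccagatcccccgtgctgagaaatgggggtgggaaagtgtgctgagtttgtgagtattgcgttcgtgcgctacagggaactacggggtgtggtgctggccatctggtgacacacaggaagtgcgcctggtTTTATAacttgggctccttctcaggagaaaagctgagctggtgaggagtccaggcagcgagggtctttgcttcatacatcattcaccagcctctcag
Cfp: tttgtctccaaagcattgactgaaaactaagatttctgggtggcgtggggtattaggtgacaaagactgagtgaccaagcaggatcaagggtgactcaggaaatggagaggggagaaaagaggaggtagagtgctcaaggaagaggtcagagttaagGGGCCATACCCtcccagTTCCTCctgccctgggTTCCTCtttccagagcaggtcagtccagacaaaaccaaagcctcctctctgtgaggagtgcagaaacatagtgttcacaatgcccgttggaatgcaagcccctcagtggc
GAGGAA was found in the windows of C1qb, Fcna and Cfp and in 27.6% of 33469 rat promoter windows of the same length, so its presence is common. Its letters were not in the C1qa window, which held matches to the STAT letters (8.87% of all windows) and the NF-kB letters (47.3%). The IRF letters were in 0 of the 21 complement windows, which include those of the untested C4b, C5 and Cd55, and in 3.92% of all windows.

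C1q works with a pair of proteases, C1r, which activates itself, and C1s, which then cuts C4 and C2; their genes are neighbours on chromosome 4. C1r measured 6.03 ± 0.21 in corn oil and 5.82 ± 0.03 in BBMP livers (SD, n = 3 each), a difference of -0.20 ± 0.13, and C1s measured 5.77 ± 0.15 and 5.52 ± 0.14, a difference of -0.25 ± 0.13 (SE). For both the groups overlapped, with adjusted p of 0.583 and 0.515 by limma. Unlike the C1q chains, neither had corn oil 3, BBMP 1 and BBMP 3 as its 3 highest livers.

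The lectin pathway begins with the mannose-binding lectins and the ficolins, which bind sugars on microbes. Mbl1, a mannose-binding lectin of rat serum, measured 5.09, 5.30 and 5.04 in corn oil and 4.90, 4.97 and 5.40 in BBMP livers. BBMP livers held both its lowest and its highest value, and the difference was -0.05 ± 0.16 (SE; limma adjusted p = 0.928). Mbl2, the other mannose-binding lectin, differed by -0.10 ± 0.09, with groups that overlapped. Among the ficolins, Fcna, which Kupffer cells make, measured 0.45, 0.41 and 0.99 against 1.42, 0.59 and 1.59. This was the highest difference above 0 of the 28 genes, 0.58 ± 0.30 or 1.50-fold (limma adjusted p = 0.523), but BBMP 2 lay below corn oil 3. Without BBMP 3 it was 0.39 and without BBMP 2 it was 0.88. Fcnb, the ficolin of neutrophils and monocytes, measured -1.07, -1.10 and -0.87 in corn oil and -1.15, -1.90 and -0.01 in BBMP livers. Its BBMP values surrounded the corn oil values, with an SD of 0.95 against 0.12, and the mean difference was -0.01 ± 0.45.

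Of the lectin pathway proteases, Masp2, which cuts C4 and C2, measured 4.54, 4.51 and 4.36 in corn oil and 4.20, 4.08 and 4.27 in BBMP livers. Every BBMP liver was below every corn oil liver, as for 9.58% of all features, and the difference was -0.29 ± 0.10 (SE; unadjusted p = 0.0293, adjusted p = 0.432 by limma). The other probes of Masp2 did not show this, with differences of 0.00 ± 0.14 and 0.08 ± 0.11 and groups that overlapped. Over the mean of its probes the difference of Masp2 was -0.07. Masp1, which activates Masp2 and is transcribed in several forms, differed by 0.03 ± 0.14 on its brightest probe and by -0.14 to -0.01 on its other probes.

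C3 and C2 supply parts of the convertases, the enzyme complexes that cut C3 and C5. C3, the protein on which all routes meet, measured 9.81, 9.86 and 9.82 in corn oil and 9.61, 9.71 and 9.57 in BBMP livers. The corn oil values were close together and all above the BBMP values, and the difference was -0.20 ± 0.09 or 0.868-fold (SE; limma adjusted p = 0.482). C2, the protease of the classical and lectin convertase, differed by only -0.03 ± 0.11. Its neighbour on chromosome 20, Cfb, encodes factor B, the corresponding protease of the alternative convertase. Cfb measured 9.15, 9.19 and 9.12 against 8.98, 9.04 and 8.94, again without overlap, and the difference was -0.17 ± 0.09 (limma adjusted p = 0.524). With quantile normalization the differences of C3 and Cfb shrank to -0.09 and -0.08. Both probes are among the brightest, where differences below 0 were more frequent than over all features: of 282 features with a mean above 8, 66.0% had a difference below 0, with a median of -0.08. The other probe of Cfb differed by -0.09 ± 0.08, also without overlap. Whether the brightness of these probes bears on the difference was not tested further.

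The promoters of C3 and of C8b, the gene with the smallest p among the 28, are shown as examples of hepatocyte-made members, with the same motifs in capitals (chr9:2201290-2201589 on the minus strand and chr5:124763864-124764163 on the plus strand, GRCr8).
C3: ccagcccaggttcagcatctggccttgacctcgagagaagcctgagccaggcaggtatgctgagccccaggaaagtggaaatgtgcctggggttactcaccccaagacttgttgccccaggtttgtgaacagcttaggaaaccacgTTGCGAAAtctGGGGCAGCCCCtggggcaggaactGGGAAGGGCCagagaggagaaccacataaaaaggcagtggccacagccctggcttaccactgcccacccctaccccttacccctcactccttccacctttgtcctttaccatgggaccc
C8b: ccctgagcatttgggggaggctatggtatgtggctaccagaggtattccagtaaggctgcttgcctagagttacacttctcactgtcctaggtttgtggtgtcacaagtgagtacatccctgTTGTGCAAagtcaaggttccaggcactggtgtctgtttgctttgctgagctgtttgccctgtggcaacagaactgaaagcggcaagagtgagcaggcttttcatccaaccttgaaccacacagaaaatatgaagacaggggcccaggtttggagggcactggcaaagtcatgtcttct
Both windows held the C/EBP letters TTGCNNAA, as did 6 of the 13 hepatocyte-made genes with a window and 10.6% of all windows. The 13 include the untested C4b and C5. A match is a description of these letters and not evidence that a factor binds there.

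The alternative pathway also needs Cfd, factor D, the protease that cuts factor B, and Cfp, properdin, which stabilises the convertase. Cfp, made by myeloid cells, measured 0.65, 0.57 and 1.34 in corn oil and 1.36, 0.73 and 1.66 in BBMP livers, so corn oil 3, BBMP 1 and BBMP 3 were high as for C1q. The difference was 0.40 ± 0.30 (SE; limma adjusted p = 0.653) and ran from 0.19 to 0.66 when single livers were left out. Cfd, made chiefly by fat cells, differed by -0.17 ± 0.23. Of the adipocyte markers, Fabp4 was well above background on 2 corn oil and 3 BBMP arrays and differed by -0.09 ± 0.42. Adipoq and Lep were not well above background on all 3 arrays of either group, so they were left out. The part of the adipocyte markers in the values of Cfd was not tested.

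The terminal components assemble the membrane pore, with C6 and C8 as its frame and C9 as the ring that opens it. C8b, the beta chain of C8, measured 5.07, 5.12 and 5.22 in corn oil and 4.87, 4.69 and 4.88 in BBMP livers. All BBMP livers were below all corn oil livers, by 0.33 ± 0.10 in the mean or 0.798-fold (SE), with an unadjusted p of 0.0169 and an adjusted p of 0.406 by limma. Leaving out single livers gave -0.36 to -0.27. The gene next to it, C8a, for the alpha chain, measured 5.89, 6.23 and 6.21 against 5.83, 5.95 and 5.92. Its groups overlapped through corn oil 1, and the difference was -0.21 ± 0.12, with -0.41 ± 0.17 and -0.09 ± 0.10 on its other probes. C6 gave the difference farthest from 0 of the 28 genes, -0.74 ± 0.35 or 0.600-fold (limma adjusted p = 0.497). It measured 3.82, 4.83 and 3.63 in corn oil and 3.00, 3.72 and 3.36 in BBMP livers. Much of the difference rested on the high value in corn oil 2, since without that liver it was -0.37. C9 measured 6.38, 6.70 and 6.83 against 6.68, 6.47 and 6.73, and the group means were alike (-0.01 ± 0.15), with a 95% interval from -0.37 to 0.35.

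**Figure D2:**
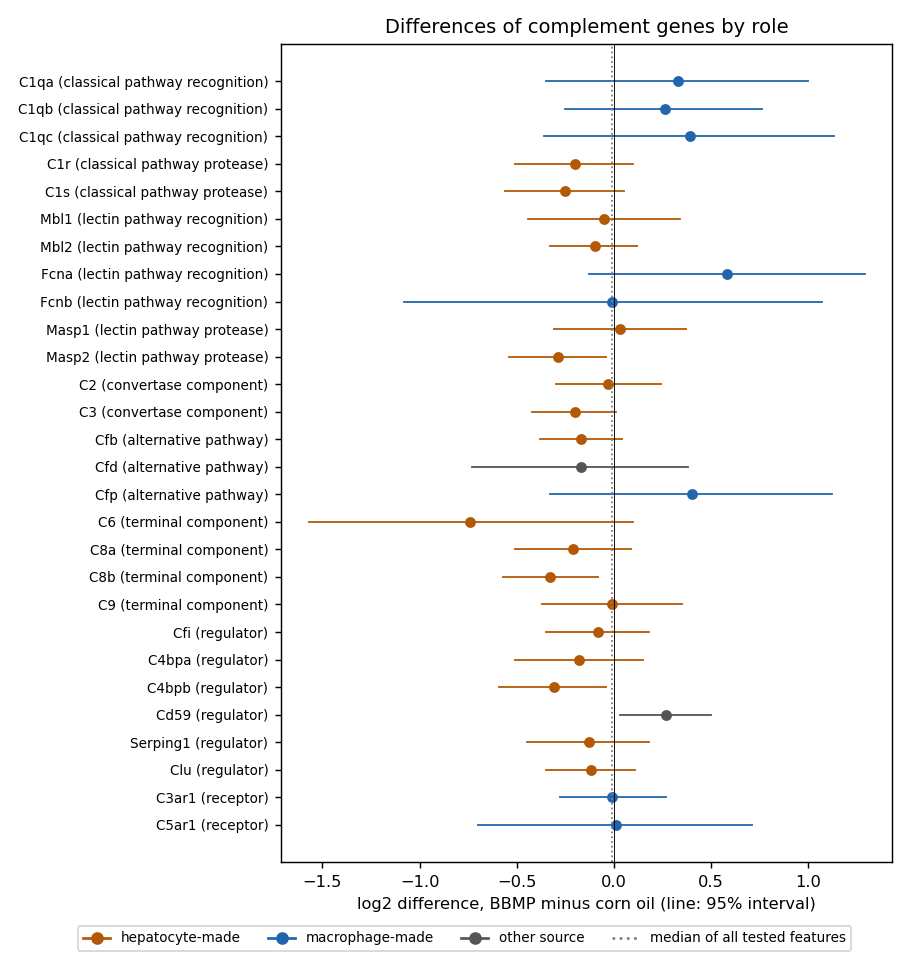
Log2 difference between BBMP and corn oil (points) with its 95% interval (lines) for the 28 tested genes, ordered by role; the dotted line is the median of all tested features, -0.01. Only the intervals of Masp2, C8b, C4bpb and Cd59 leave out 0 before adjustment for the number of features, and the widest belong to Fcnb and C6.

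Regulators keep the cascade off host cells. C4bpb is the beta chain of C4b-binding protein, which helps to destroy C4b and carries protein S in plasma. It measured 8.05, 7.92 and 8.22 in corn oil and 7.65, 7.79 and 7.81 in BBMP livers, without overlap, a difference of -0.31 ± 0.11 (SE; unadjusted p = 0.0320, adjusted p = 0.435 by limma). On its other probe the groups overlapped and the difference was -0.09 ± 0.17. C4bpa, for the alpha chain, differed by -0.18 ± 0.14. Clu, clusterin, which blocks the insertion of the pore, measured 7.73, 7.71 and 7.90 against 7.63, 7.70 and 7.65. The groups of Clu were parted by a narrow gap on both of its probes, with differences of -0.12 ± 0.10 and -0.17 ± 0.09 (limma adjusted p = 0.676 on the brighter probe). Cfi, the protease that inactivates C3b and C4b, and Serping1, the C1 inhibitor, differed by -0.08 ± 0.11 and -0.13 ± 0.13, with overlap.

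Cd59, a membrane-anchored inhibitor of the pore present on most cells, was the only gene of the 28 whose BBMP values all lay above the corn oil values, as for 8.23% of all features. It measured 2.72, 2.77 and 2.76 in corn oil and 3.08, 2.89 and 3.09 in BBMP livers. The corn oil livers differed little among themselves (SD 0.02), and the difference was 0.27 ± 0.10 or 1.20-fold (SE; unadjusted p = 0.0321, adjusted p = 0.435 by limma). Under the 15 alternatives it stayed between 0.23 and 0.33. It had a single probe, so no other probe bears on it.

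Receptors read the fragments released by the cascade. C3ar1 and C5ar1, the receptors for the anaphylatoxins C3a and C5a, are found mainly on myeloid cells. C3ar1 measured -2.64 ± 0.17 in corn oil and -2.65 ± 0.03 in BBMP livers (SD, n = 3 each), a difference of -0.01 ± 0.11 (SE). C5ar1 measured -2.10, -1.70 and -1.47 in corn oil and -1.75, -2.28 and -1.22 in BBMP livers, and BBMP livers held both extremes. Its mean difference was 0.01 ± 0.29, with a 95% interval from -0.70 to 0.71.

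Set against cell type markers, 5 of the 8 macrophage-made genes shared their 3 highest livers with those of Kupffer cells. The order among these 3 livers differed between genes and also between markers. Each of the 5 genes had the order of some markers but not of others. All 8 tested markers (Cd163, Clec4f, Vsig4, Marco, Cd68, Adgre1, Csf1r and Cd5l) had corn oil 3, BBMP 1 and BBMP 3 as their 3 highest livers, as did 5 of the 8 macrophage-made complement genes, C1qa, C1qb, C1qc, Cfp and Fcna, and 0 of the 18 hepatocyte-made genes. So did Kdr, 1 of the 3 tested endothelial cell markers, and no tested marker of another cell type. These 3 livers were picked from the same values after they were seen, so the counts describe a pattern and are no test of it. The share of all features with these 3 livers highest was not counted, so these counts have no background to be set against. Vsig4 is itself a complement receptor and is counted again among further genes below. The mean level of the 8 Kupffer cell markers relative to its average was -0.46, -0.44 and 0.36 in corn oil and 0.26, -0.25 and 0.52 in BBMP livers, and that of the 8 complement genes was -0.33, -0.24 and 0.20 against 0.18, -0.36 and 0.55. In both, the groups overlapped. The Kupffer cell markers differed by 0.22 to 0.55, and 0 of 8 had an unadjusted p below 0.05. Their part in the values of the complement genes was not tested.

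**Figure D3:**
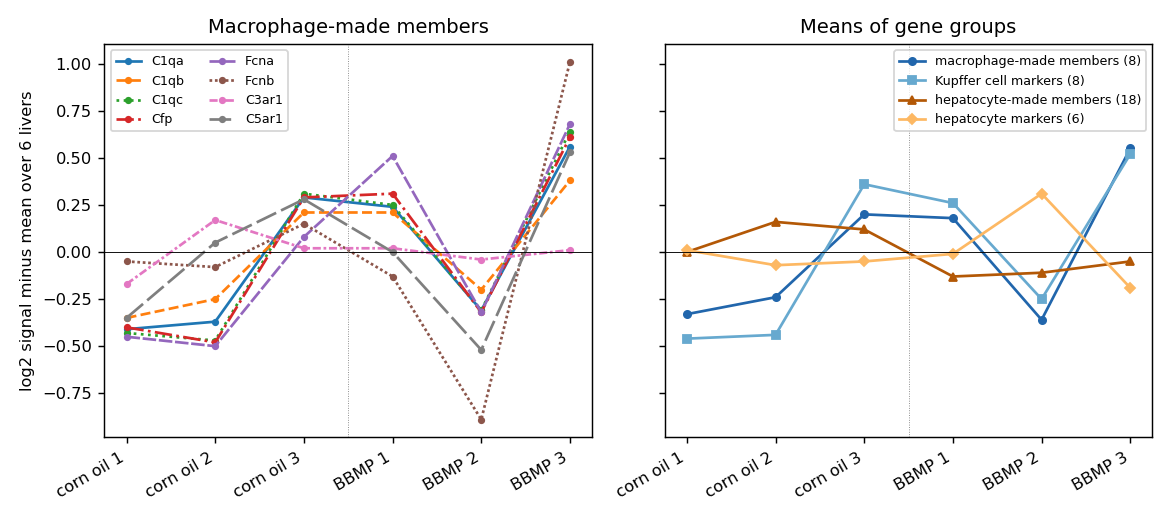
Log2 signal relative to the mean over 6 livers for each macrophage-made complement gene (left) and for the means of 4 gene groups (right); lines join the livers of the study only to guide the eye, and the dotted line parts corn oil from BBMP. The means of the macrophage-made genes and of the Kupffer cell markers are highest in BBMP 3 (0.55 and 0.52) and low in corn oil 1, corn oil 2 and BBMP 2, while the hepatocyte-made genes run from -0.13 to 0.16.

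The mean of the 18 hepatocyte-made genes was 0.00, 0.16 and 0.12 in corn oil and -0.13, -0.11 and -0.05 in BBMP livers, without overlap. Of the 6 genes whose own groups did not overlap, all lower after BBMP (Masp2, C3, Cfb, C8b, C4bpb and Clu, where 9.58% of all features were lower without overlap), only Masp2, C8b and C4bpb had an unadjusted p below 0.05. Of the 6 hepatocyte markers, 3 had a difference below 0 and 3 above it, with a mean level of 0.01, -0.07 and -0.05 against -0.01, 0.31 and -0.19, with overlap; of these, Cps1 was higher in every BBMP liver (0.49 ± 0.20, SE). Of the 6 stellate cell and fibroblast markers, 4 had a difference below 0, as did 52.5% of all features. Lrat, Pdgfrb and Col3a1 were lower at an unadjusted p below 0.05 by limma, as were 6.09% of all features. Limma called 0 of the 6 after adjustment. Des and Dcn had differences above 0, and Des was higher in every BBMP liver. The mean level of the 6 markers was 0.09, 0.19 and 0.07 in corn oil and 0.04, -0.16 and -0.24 in BBMP livers, which also did not overlap. The part of these cells in the hepatocyte-made genes was not tested. Neutrophil markers, examined because of Fcnb, had differences below 0 in 3 of 3 tested cases, as did 52.5% of all features. Limma gave 0 of the 3 an unadjusted p below 0.05. The part of these markers in the values of Fcnb was not tested. The mean level of the neutrophil markers was 0.10, 0.83 and -0.17 in corn oil and -0.70, 0.06 and -0.13 in BBMP livers. Elane and Csf3r were not well above background on all 3 arrays of either group, so they were left out.

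Where a gene had several probes, the choice of probe mattered more for some than for others. Of the 14 genes with more than 1 tested probe, 12 had probes that agreed in sign and 2, Masp1 and Masp2, did not. Of the 3 genes lower at an unadjusted p below 0.05, C8b had a single probe, and neither Masp2 nor C4bpb showed the difference on another probe.

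**Figure D4:**
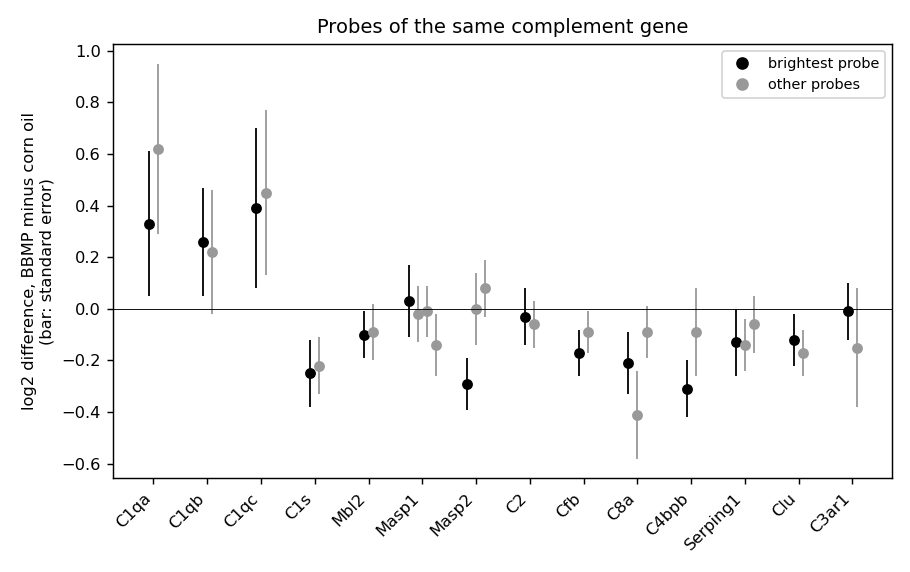
Log2 difference between BBMP and corn oil with its standard error (bars) for each tested probe of the 14 complement genes with several; black points are the brightest probe, used elsewhere, and grey points the others. The probes of C1qa lie at 0.33 and 0.62, while those of Masp2 run from -0.29 to 0.08.

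Among 23 further genes of the system, 14 were tested, 5 with a difference below 0 and 9 above it (median 0.05), and limma called 0, with 1 at an unadjusted p below 0.05. That gene was C4a, a C4 gene whose copy C4b had no named probe, and the 2 C4 genes are near-identical, so its probes may read both. C4a measured 8.64, 9.09 and 9.08 in corn oil and 8.70, 8.36 and 8.35 in BBMP livers, with overlap through corn oil 1, a difference of -0.47 ± 0.17 (SE; adjusted p = 0.435 by limma). Its other probe gave -0.27 ± 0.23. Vsig4, the complement receptor of Kupffer cells, had the next smallest p and differed by 0.55 ± 0.27, with -0.72, -0.83 and -0.10 against 0.14, -0.46 and 0.32.

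Of 16 receptors and transcription factors that govern complement genes in hepatocytes, 14 were tested, 6 with a difference below 0 and 8 above it (median 0.10), and limma called 0, with 0 at an unadjusted p below 0.05. The smallest p were those of Stat3, which carries the interleukin-6 signal, and Il6st, the signalling chain of its receptor. Stat3 differed by -0.46 ± 0.19 and Il6st by -0.30 ± 0.13 (SE; limma adjusted p = 0.465 and 0.481). The other probe of Stat3 gave -0.03 ± 0.20, and the other 3 probes of Il6st gave 0.03 to 0.33, so neither difference was seen on every probe.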

How the data were processed

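Liver RNA of 6 rats (3 corn oil, 3 BBMP, grouped by the treatment label) was measured on Agilent arrays of design 035170, annotated on rn4, and read with Feature Extraction 10.7.1.1, per the file headers. The deposited scanner files and the authors' value table hold linear intensity; each value table column was the processed signal divided by 1 constant per array, found by comparison. The constant lay close to the 75th percentile used here, with 449.405 against 450.11 on corn oil 1 and 567.898 against 570.5 on BBMP 3. How the constant was set is not given in the sources used here.

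After leaving out 1319 control spots and 84 spike-in probes, 61573 probes were scaled to the 75th percentile of their array and put on a log2 scale. Outlier spots were left out. A probe was tested if well above background on all 3 arrays of a group, and the brightest tested probe stood for a gene. BBMP was set against corn oil by limma 3.58.1 (R 4.3.3), with two-sided p-values adjusted after Benjamini and Hochberg across the 28112 features tested; the fit was tested on simulated data. Probe accessions were named through RefSeq (GRCr8), which named 27460 probes; promoter windows come from the same source.

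Values on each array were to be given for genes with an unadjusted p below 0.05, groups without overlap or signal in 1 group alone. The plan also named genes with an outlying array by Dixon's test, and C1qa, C1qb, C1qc, C3, C9 and Mbl1. No result of Dixon's test is given here. Values of Fcna, Fcnb, Cfp, C6, C8a and C5ar1 were added after they were seen. The genes and lists were chosen with earlier results of these data known. The alternatives were normexp (on the median spot signal), quantile normalization, median scaling, the mean of probes, no filter, a stricter one over all 6 arrays, trended and robust moderation, the replicate number as a block, the authors' table and each array left out. The number of arrays limits the precision.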

Additional observations from a re-analysis of the deposited data

How the results depend on the processing

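All alternatives were planned, and under all 15 the number of complement genes past the threshold stayed 0, as it did for the further genes of the system and the regulators. The medians of the hepatocyte-made and macrophage-made genes stayed at -0.18 and 0.29 with the authors' table, either filter change and trended and robust moderation. Those settings vary the differences little or not at all. The 2 features called became 0 with normexp, 0 when signal was asked of all 6 arrays, and 1 without a filter; without single livers the number ran from 0 to 4. The replicate block gave 0 features and 0 complement genes. Its medians of -0.18 and 0.29 had to equal those without it, since each replicate number stands in both groups. Same-numbered rats deviated together with correlations of only 0.089, 0.016 and 0.072, and not every rat correlated best with its own number. The numbers are therefore not known to pair the rats. The median of the hepatocyte-made genes was -0.11 with quantile normalization and ran from -0.19 to -0.15 without single livers. The causes were not tested.

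Genes near 0 changed sign. Fcnb was 0.10 with normexp and 0.01 with quantile and with median scaling, C3ar1 was 0.00, 0.01 and 0.01 in the same order, C9 was 0.01 with median scaling, and Masp1 was -0.04 over the mean of its probes. Leaving out single livers gave -0.20 to 0.04 for Mbl1, -0.51 to 0.43 for Fcnb, -0.09 to 0.10 for Masp1, -0.09 to 0.04 for C2, -0.33 to 0.01 for Cfd, -0.14 to 0.09 for C9, -0.10 to 0.07 for C3ar1 and -0.26 to 0.27 for C5ar1. Signal over background kept Cd55 out of every test but the one without a filter.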
